A study of Mus musculus with 12 samples.

Results

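The transcriptome of resting IEC4.1 cells was compared between cells given siRNAs against the long noncoding RNA Nostrill (siR_Nostrill, 3 libraries) and cells given a scrambled control siRNA (siR_Ctrl, 3 libraries), all without IFN-γ. These 6 of the 12 libraries of the series were chosen by their labels, and all genes with deposited read counts were used. IEC4.1 is a cell line from the intestinal epithelium of newborn mice. Both groups received 120 nM siRNA with a lipid reagent for 24 h, and the siR_Nostrill cells received a pool of 3 siRNAs at 40 nM each. The other 6 libraries come from the same pair of siRNA treatments with 1 ng/ml IFN-γ, for 4 h by the methods, while the labels give 24 h for every library. The tables list 15002 genes, of which 11900 passed the filter on low counts and were tested. All are listed as mRNA, so the level of Nostrill itself was not analysed here and the knockdown was not checked.

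Long noncoding RNAs can act at the gene they come from or elsewhere in the nucleus or cytoplasm, and RNA interference lowers such a transcript through the antisense strand of an siRNA loaded on an Argonaute protein. The bases at positions 2 to 8 of that strand, the seed, can also pair with sites in the 3′ untranslated region (3′UTR) of other mRNAs. Double-stranded RNA can be sensed by Rig-I, Mda5, Pkr and Oas proteins, and interferon-stimulated genes are switched on through transcription factors such as Stat2, Irf9 and Irf7. Nostrill is transcribed from the gene 2500002B13Rik (gene ID 78353) at chr8:57487963-57510262 (GRCm38.p6).

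The antisense strands of the 3 siRNAs are shown because their seeds were looked for in the mRNAs tested. They are written 5′ to 3′ as the reverse complement of the sense strands in the study's oligonucleotide list, with the seed in capitals. That list prints each antisense strand as the base-by-base complement in the order of the sense strand, which was read as 3′ to 5′, and the seeds and sites used here rest on this reading.
Nostrill-1: aUUAAUGCuucuucccagg
Nostrill-2: aUUUGUGUguuccuggugg
Nostrill-3: aUUAGAACgacuuauaggc
The sense strand of Nostrill-1 matched exon 1 of the longer GENCODE transcript of the gene at chr8:57488174-57488192 (plus strand), and that of Nostrill-2 matched exon 3 at chr8:57506566-57506584. That of Nostrill-3 matched neither of the 2 GENCODE transcripts of the gene.

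Reads counted on genes ranged from 17869468 to 18493044 over the 6 libraries. Defining epithelial markers were absent or low. Epcam, Cdh1, Cldn3, Cldn4 and Cldn7 were not among the genes listed, and Krt8 and Krt18 had means of 0.205 and 0.0333 FPKM (fragments scaled for transcript length and library size) over the 6 libraries. Of 10 epithelial markers 5 were listed, and Krt19, at 1.79 FPKM, was the only one above 1, with a summed FPKM from 1.60 to 3.17 in siR_Ctrl and from 1.75 to 2.67 in siR_Nostrill libraries. Col1a1, Col1a2 and Col3a1, collagen genes that mark fibroblasts, had means of 234, 168 and 73.0 FPKM. Of the other fibroblast markers, Pdgfra and Dcn had means of 15.7 and 16.7 FPKM, and Lum was low at 0.195 FPKM. The summed FPKM of 6 fibroblast markers ranged from 440 to 654 in siR_Ctrl and from 406 to 586 in siR_Nostrill libraries, and edgeR called 0 markers of any of these cell types with the length trend removed. Between replicates of a group, the chi-square of the counts divided by its degrees of freedom was 6.59 to 99.2, above the value near 1 that sampling alone gives. The methods describe biological triplicates, while the labels do not say that the cultures were separate, so p-values measure the spread between these libraries.

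The log2 fold change between the groups followed transcript length. The length used for each gene was the value implied by its deposited counts and FPKM, not an annotated length. Across the 11900 genes its Spearman correlation with length was -0.654, a description over genes that share the same 6 libraries. Of 5 groups of 2380 genes ranked by length, the shortest, with a median length of 990 nt, had a median log2 fold change of 0.25, and the longest, with a median of 6048 nt, had a median of -0.28. The library siR_Ctrl replicate 1 stood apart, with a mean transcript length per read of 3320 nt against 2537 to 2851 nt in the other 5. Every comparison was therefore made on the counts as deposited and again after each library's trend with length was removed, which brought the correlation to 0.00331 and the medians of the 5 length groups to between 0.00 and 0.01. Removal lowered the median absolute log2 fold change of all genes from 0.190 to 0.118.

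**Figure D1:**
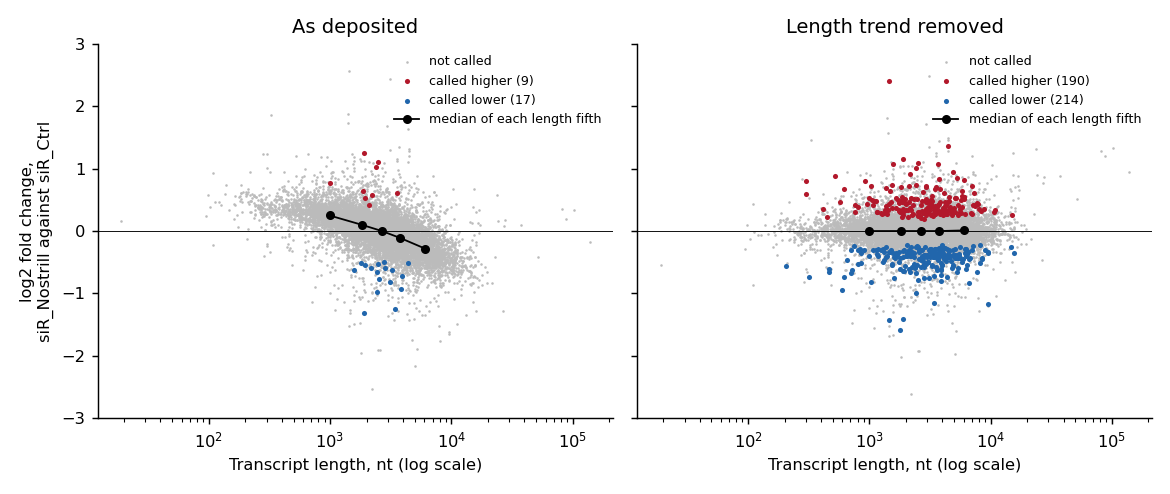
Log2 fold change of each gene in siR_Nostrill against siR_Ctrl libraries (vertical axis) against transcript length in nt (log scale), as deposited and with the length trend removed; grey points are genes not called, coloured points are genes called at an adjusted p below 0.05, and black points are medians of 5 length groups. As deposited the medians run from 0.25 to -0.28, and after removal they lie between 0.00 and 0.01. Length is the value implied by the deposited counts and FPKM.

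As deposited, 26 of 11900 genes (0.218%) were called, which means an adjusted p below 0.05 in the quasi-likelihood test of edgeR after the Benjamini-Hochberg adjustment over all genes tested. Of these, 9 (0.0756%) were higher and 17 (0.143%) were lower in siR_Nostrill cells, and 1643 genes had an unadjusted p below 0.05. With the length trend removed, 404 genes (3.39%) were called, 190 (1.60%) higher and 214 (1.80%) lower. Both fits called 25 genes, all in the same direction, and the exception was Nus1, a subunit of the enzyme that makes dolichol, with an adjusted p of 0.0536 in edgeR after removal. The changes were modest in size, with a median absolute log2 fold change of 0.402 over the 404 genes and 13 genes above 1. In all 404 the length-corrected counts, scaled for library size (CPM), of the groups did not overlap, as was so for 23.9% of the genes tested.

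The calls came from fits of all 12 libraries. On only the 6 compared, edgeR called 0 genes as deposited (1143 at an unadjusted p below 0.05) and 249 after removal. The number of calls also depended on single libraries. Without siR_Ctrl replicate 1, edgeR called 0 genes as deposited (792 at an unadjusted p below 0.05) and 170 with the trend removed, of which 164 were among the 404. DESeq2 on all 12 libraries called 280 as deposited and 706 after removal. The length source and the form of the trend mattered too. After removal with GENCODE transcript lengths, 110 genes were called. When the trend was taken against each group's own mean, 3452 were called. That form removes the trend within groups but leaves the length trend between the groups in place. With GENCODE lengths 32 of 71 named genes lost their call, among them Oasl2, Bst2, Ddx58, Adar, H2-T23, H2-K1, Fdps, Stard4, Ankrd1, Rrm2 and Wwc1. Among the genes named below as changed after removal, those not called without siR_Ctrl replicate 1 were Ifih1, Eif2ak2, Adar, Gbp3, Ifitm3, Uba7, Ifi203, Samhd1, Cx3cl1, Cxcl5, Hmgcs1, Mvd, Fdft1, Sc5d, Lats2, Ajuba, Axl, Tead2, Nfe2l2, Ccne2, Plk2, Fosl2, Tgfb3, Cox7b, Akap13, Gadd45g, Oscp1, Hdc, Dmtn, Prl2c2, Prl2c3, Zfp518a and Tas1r2. Without siR_Nostrill replicate 2, edgeR called 148 genes after removal, and 22 of 71 named genes lost their call. Fdps, Mvk, Wwc1, Ctxn1 and Ube2l6 were called without siR_Ctrl replicate 1 but not without siR_Nostrill replicate 2.

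Some genes of the interferon response were higher in siR_Nostrill cells. Over 7 lists of interferon genes with 128 members tested, 21 rose and 1 fell with the length trend removed, which is 17.2% of the members against 3.39% of all genes. As deposited, 4 rose (Oasl1, Oasl2, Ifit1 and Irf9) and 0 fell. The median log2 fold change of the 128 was 0.23 in both fits, against 0.01 as deposited and 0.00 after removal over all genes, and 100 of the 128 lay above 0 after removal. The filter on low counts used all 12 libraries, and 29 of the 128 had a mean below 1 FPKM in the resting libraries. Of the other 99, 21 rose and 1 fell after removal, with a median of 0.20 and 78 above 0.

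The Oas and Oasl family, which binds double-stranded RNA, had 7 members tested, and both Oasl1 and Oasl2 rose in both fits. These 2 are 28.6% of the list, against 0.218% of all genes called as deposited and 3.39% after removal. Oasl2 had 4.99, 3.24 and 5.45 FPKM in the siR_Ctrl libraries and 9.71, 8.51 and 10.6 FPKM in the siR_Nostrill libraries. Each siR_Nostrill library lay above each siR_Ctrl library. Its log2 fold change was 1.10 as deposited (SE 0.14, adjusted p = 0.0189 in edgeR) and 1.09 with the trend removed (SE 0.13, adjusted p = 0.000975). Oasl1 had 1.12, 1.12 and 1.53 FPKM in siR_Ctrl and 4.0, 2.5 and 2.37 FPKM in siR_Nostrill libraries. Its groups did not overlap either, with siR_Nostrill replicate 1 the highest, and its log2 fold change was 1.25 as deposited (adjusted p = 0.0472 in edgeR) and 1.16 after removal (adjusted p = 0.00471). The other 5 members were near the floor of detection, from 0.0300 to 0.253 FPKM in siR_Ctrl cells, and did not pass the test.

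Of 7 Ifit and Ifitm genes tested, whose products bind viral RNA or restrict viral entry, Ifit1 rose in both fits and Ifitm3 rose once the trend was removed. The calls are 14.3% of the list as deposited and 28.6% after removal, against 0.218% and 3.39% of all genes. Ifit1 had 2.5, 2.25 and 3.87 FPKM in siR_Ctrl and 5.83, 5.36 and 6.09 FPKM in siR_Nostrill libraries. The groups did not overlap, and the log2 fold change was 1.03 as deposited (SE 0.17, adjusted p = 0.0384 in edgeR) and 1.01 after removal (SE 0.15, adjusted p = 0.00240). Ifitm3 had a log2 fold change of 0.35 (adjusted p = 0.0330 in edgeR) after removal and 0.72 (adjusted p = 0.224) as deposited. Ifit2 had a log2 fold change of -0.03 (adjusted p = 0.910 in edgeR) after removal. Ifitm3 and Ifitm2, and the class I genes below, share sequence with close paralogs, so reads may be split between them.

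Of 29 interferon receptor, JAK, STAT and IRF genes, Irf9 rose in both fits, Irf7 rose after removal, and 0 fell (6.90% called after removal, against 3.39% of all genes, with a median of 0.06). Irf9, the DNA-binding subunit of the ISGF3 complex, had 6.45, 5.58 and 6.44 FPKM in siR_Ctrl and 9.90, 7.89 and 9.64 FPKM in siR_Nostrill libraries. It had no overlap between groups and log2 fold changes of 0.58 as deposited (adjusted p = 0.0357 in edgeR) and 0.53 after removal (adjusted p = 0.00477). Irf7, which amplifies type I interferon transcription, had 1.29, 1.76 and 1.93 FPKM in siR_Ctrl and 3.65, 3.26 and 4.35 FPKM in siR_Nostrill libraries. It missed the threshold as deposited (log2 fold change 1.19, adjusted p = 0.0508 in edgeR) and passed after removal (1.07, adjusted p = 0.00230). Irf1, a transcription factor induced by interferons, had a log2 fold change of 0.11 (adjusted p = 0.311 in edgeR) after removal.

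Among 30 other interferon-stimulated effectors, 8 rose and 1 fell after removal (30% called, against 3.39% of all genes), and 0 were called as deposited. Isg15, a ubiquitin-like modifier, had 51.9, 80.3 and 102 FPKM in siR_Ctrl and 175, 205 and 148 FPKM in siR_Nostrill libraries. The siR_Ctrl libraries spread over a wide range as deposited, and after removal they lay at 39.0, 38.3 and 53.1 CPM against 76.2, 85.9 and 78.1 CPM. Accordingly the log2 fold change of Isg15 was 1.21 (SE 0.29, adjusted p = 0.151 in edgeR) as deposited and 0.88 (SE 0.11, adjusted p = 0.000975) after removal. Its implied length was 524 nt. Parp14, an ADP-ribosyltransferase with an implied length of 7071 nt, moved the other way between the fits. Its log2 fold change went from 0.41 (adjusted p = 0.357 in edgeR) to 0.73 (adjusted p = 0.00108). Rtp4 (0.80), Uba7 (0.50), Ifi203 (0.48), Bst2 (0.47), Ifi27 (0.41) and Ube2l6 (0.30) also rose after removal, and Samhd1, a dNTP hydrolase, fell by 0.28 on the log2 scale.

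**Figure D2:**
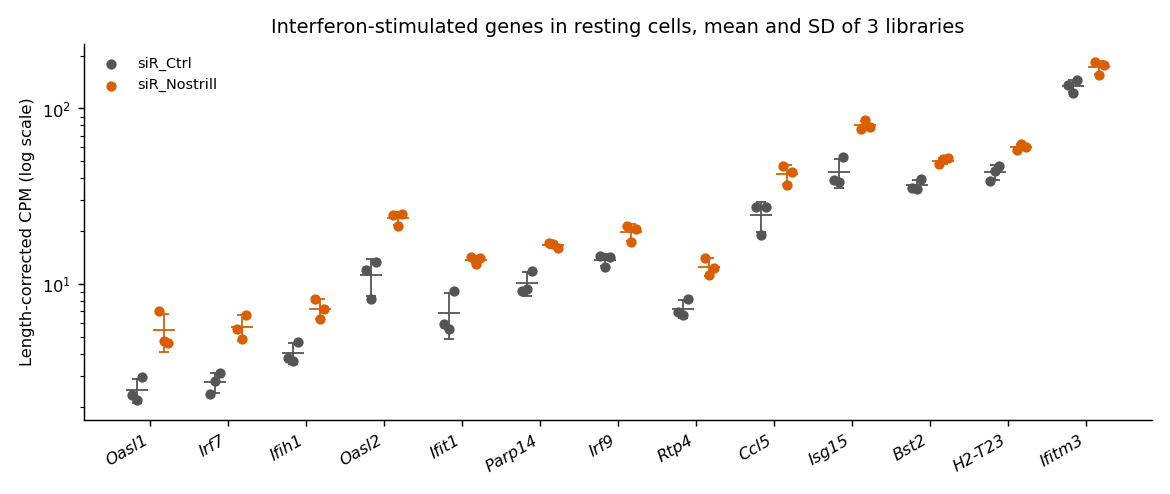
Length-corrected CPM (log scale) of 13 genes in the 3 siR_Ctrl (grey) and 3 siR_Nostrill (orange) libraries without IFN-γ; points are libraries, and bars give the mean and SD. For each gene all 3 siR_Nostrill libraries lie above all 3 siR_Ctrl libraries, with Isg15 at 76.2 to 85.9 CPM against 38.3 to 53.1 CPM. The genes were taken from those called after removal, and in all of those the groups did not overlap.

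Of 23 nucleic acid sensing genes tested, 4 rose and 0 fell after removal (17.4% called, against 3.39% of all genes), and 0 were called as deposited. Ifih1, which encodes Mda5, had 3.78, 3.67 and 4.70 CPM in siR_Ctrl and 8.23, 6.33 and 7.17 CPM in siR_Nostrill libraries after removal. The groups did not overlap, and the log2 fold change was 0.85 (SE 0.16, adjusted p = 0.00966 in edgeR). Eif2ak2, which encodes Pkr, rose by 0.54 (adjusted p = 0.0251 in edgeR), Ddx58, which encodes Rig-I, by 0.33 (adjusted p = 0.0128) and the RNA editing enzyme gene Adar by 0.30 (adjusted p = 0.0360). Without siR_Ctrl replicate 1 the list had 1 call, Ddx58 (4.35% higher, against 0.630% of all genes in that fit). Of 18 antigen presentation genes, the class I genes H2-T23 (0.48, adjusted p = 0.00787 in edgeR) and H2-K1 (0.29, adjusted p = 0.00975) rose and none fell after removal. These 2 are 11.1% of the list, against 3.39% of all genes, and 0 were called as deposited. Of 15 interferon-inducible GTPases, Gbp3 alone rose after removal (0.51, adjusted p = 0.0365 in edgeR), and 0 were called as deposited. This 1 call is 6.67% of the list, against 3.39% of all genes.

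Chemokines were mixed. Ccl5, which attracts T cells and is also interferon-inducible, had 58.9, 71.1 and 91.0 FPKM in siR_Ctrl and 193, 161 and 143 FPKM in siR_Nostrill libraries. The groups did not overlap, and the log2 fold change was 1.23 as deposited (adjusted p = 0.0693 in edgeR) and 0.80 after removal (adjusted p = 0.00477). Cx3cl1 rose by 0.30 and Cxcl5, a neutrophil attractant, fell by 0.40 on the log2 scale after removal (adjusted p = 0.0188 and 0.0446 in edgeR). Of 19 NF-kB genes 0 were called in either fit, with medians of -0.04 as deposited and 0.00 after removal. Nfkbia, the inhibitor that NF-kB induces, had a log2 fold change of 0.09 (adjusted p = 0.460 in edgeR) after removal. The 3 calls among 21 cytokine and chemokine genes after removal are 14.3%, against 3.39% of all genes, and 0 were called as deposited.

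The promoters of the interferon genes that rose are shown where they hold the core of an interferon-stimulated response element, the binding motif of Irf factors. GAAA, any 2 bases and GAAA again were searched on both strands in the RefSeq promoter windows (GRCm38.p6, 250 bases before to 50 after the annotated start). The letters were found for 10 of 18 such genes with a window (55.6%), and for 366 of 9521 tested genes with a window (3.84%). Of the 134 other genes that rose and had a window, 4 held them (2.99%). TTC, any 3 bases and GAA, the motif of Stat dimers, were found for 4 of the 18 (22.2%) and for 8.29% of all. The following windows are written on the strand of the gene, with the match in capitals, which on the opposite strand reads as the searched letters where it begins with TTTC.
Isg15 (chr4:156200865-156200894, minus strand): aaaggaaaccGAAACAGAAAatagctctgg
Ifit1 (chr19:34640775-34640804, plus strand): caggcttcagTTTCACTTTCcagtctcagt
Eif2ak2 (chr17:78882535-78882564, minus strand): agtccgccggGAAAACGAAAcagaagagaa
A match is a description of these letters and was not tested for binding. Interferon list members that did not rise were not counted separately, so these shares do not separate the rise from list membership.

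Of 26 genes of cholesterol synthesis and uptake tested, 12 rose and 0 fell after removal (46.2%, against 3.39% of all genes), and all 26 lay above 0, with a median log2 fold change of 0.42. As deposited 0 of 26 were called, while 25 lay above 0, with a median of 0.39. Fdps, which makes farnesyl pyrophosphate, had 147, 221 and 250 FPKM in siR_Ctrl and 397, 428 and 340 FPKM in siR_Nostrill libraries. The groups did not overlap, with siR_Ctrl replicate 1 the lowest, and the log2 fold change was 0.94 (adjusted p = 0.185 in edgeR) as deposited and 0.73 (adjusted p = 0.0104) after removal. Insig1, which retains the SREBP complex in the endoplasmic reticulum, rose from 30.9 ± 3.84 to 51.5 ± 3.26 FPKM (SD, n = 3 each), or 0.74 on the log2 scale after removal (adjusted p = 0.00996 in edgeR). Among other enzyme genes of the pathway, Hmgcs1 rose by 0.40, Mvk by 0.65, Mvd by 0.74, Fdft1 by 0.62, Cyp51 by 0.61 and Sc5d by 0.31, and the sterol carrier gene Stard4 rose by 0.53, on the log2 scale after removal. Without siR_Ctrl replicate 1, 5 of the 26 rose (19.2%, against 0.630% of all genes in that fit), with a median of 0.371. Without siR_Nostrill replicate 2, Insig1, Cyp51 and Stard4 were called, and Fdps, Hmgcs1, Mvk, Mvd, Fdft1 and Sc5d were not.

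Among the genes called after removal with an average above 1 on the log2 CPM scale, the one that fell most was Edn1, which encodes the vasoactive and mitogenic peptide endothelin-1. It had 3.53, 3.32 and 2.60 FPKM in siR_Ctrl and 1.02, 1.61 and 1.08 FPKM in siR_Nostrill libraries. The groups did not overlap. Its log2 fold change was -1.32 as deposited (SE 0.20, adjusted p = 0.0357 in edgeR) and -1.41 after removal (SE 0.19, adjusted p = 0.00156). Ece1, which cleaves its precursor, had -0.23 (adjusted p = 0.0987 in edgeR) after removal.

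Some genes of the Hippo pathway and some targets of its effector YAP were lower. Of 28 genes of that list, 3 fell and 0 rose as deposited, and 7 fell and 1 rose after removal (28.6% called, against 3.39% of all genes), with medians of -0.34 and -0.18. Ccn1, a matricellular protein gene induced by YAP, had 152, 140 and 136 FPKM in siR_Ctrl and 96.8, 92.0 and 106 FPKM in siR_Nostrill libraries. Each siR_Nostrill library lay below each siR_Ctrl library, with log2 fold changes of -0.51 as deposited (adjusted p = 0.0189 in edgeR) and -0.61 after removal (adjusted p = 0.00162). Ccn2, its relative, fell from 9.76 ± 0.385 to 6.33 ± 0.690 FPKM (SD, n = 3 each), with log2 fold changes of -0.60 (adjusted p = 0.0454 in edgeR) and -0.65 (adjusted p = 0.00425). Ankrd1, another target, had -0.53 (adjusted p = 0.00163 in edgeR) after removal and -0.39 (adjusted p = 0.303) as deposited. Lats2 (-0.48), Wwc1 (-0.61) and Ajuba (-0.38), which are regulators of the pathway, also fell after removal, and Wwc1 fell in both fits. The receptor tyrosine kinase gene Axl fell (-0.23) and Tead2, a DNA-binding partner of YAP, rose (0.25). Without siR_Ctrl replicate 1, 4 members fell (14.3%, against 0.798% of all genes in that fit) and 0 rose. Without siR_Nostrill replicate 2, Ccn1, Ccn2 and Ankrd1 were called, and Lats2, Wwc1, Ajuba, Axl and Tead2 were not.

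Fgf7, Pkia and Gsr were among the 17 lower genes as deposited. Fgf7, a fibroblast growth factor that acts on epithelial cells, had 34.8, 27.9 and 28.8 FPKM in siR_Ctrl and 15.4, 13.6 and 16.5 FPKM in siR_Nostrill libraries. The groups were far apart, with log2 fold changes of -0.98 as deposited (SE 0.11, adjusted p = 0.0182 in edgeR) and -1.0 after removal (SE 0.11, adjusted p = 0.000611). Pkia, an inhibitor of protein kinase A, had 7.97, 5.16 and 6.29 FPKM in siR_Ctrl and 2.61, 2.33 and 3.05 FPKM in siR_Nostrill libraries. It also had no overlap, with log2 fold changes of -1.25 (adjusted p = 0.0182 in edgeR) and -1.16 (adjusted p = 0.000417). Gsr, glutathione reductase, had 49.8, 45.3 and 46.8 FPKM in siR_Ctrl and 27.3, 29.3 and 32.5 FPKM in siR_Nostrill libraries. Its log2 fold changes were -0.65 (adjusted p = 0.0189 in edgeR) and -0.67 (adjusted p = 0.00108), and Nfe2l2, which encodes the redox regulator Nrf2, fell by 0.36 after removal (adjusted p = 0.0335). Gsr and Nfe2l2 were the 2 calls among 19 oxidative stress genes after removal (10.5%, against 3.39% of all genes), whose median was -0.01.

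Of 32 proliferation genes, 1 fell as deposited, and 3 fell and 0 rose after removal (9.38% called, against 3.39% of all genes). After removal 24 of the 32 lay below 0, with a median of -0.06. Rrm2, the small subunit of ribonucleotide reductase, had 121, 105 and 107 FPKM in siR_Ctrl and 76.3, 66.6 and 80.0 FPKM in siR_Nostrill libraries. Its groups did not overlap, and its log2 fold change was -0.55 (adjusted p = 0.0434 in edgeR) as deposited and -0.64 (adjusted p = 0.00604) after removal. Ccne2, cyclin E2, fell by 0.45 and Mcm2, a subunit of the replicative helicase, by 0.31 after removal (adjusted p = 0.0250 and 0.00565 in edgeR). Id2, an inhibitor of helix-loop-helix factors, fell by 0.81 after removal (adjusted p = 0.00396 in edgeR) from 41.4, 37.8 and 28.1 CPM to 21.4, 19.5 and 20.2 CPM.

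**Figure D3:**
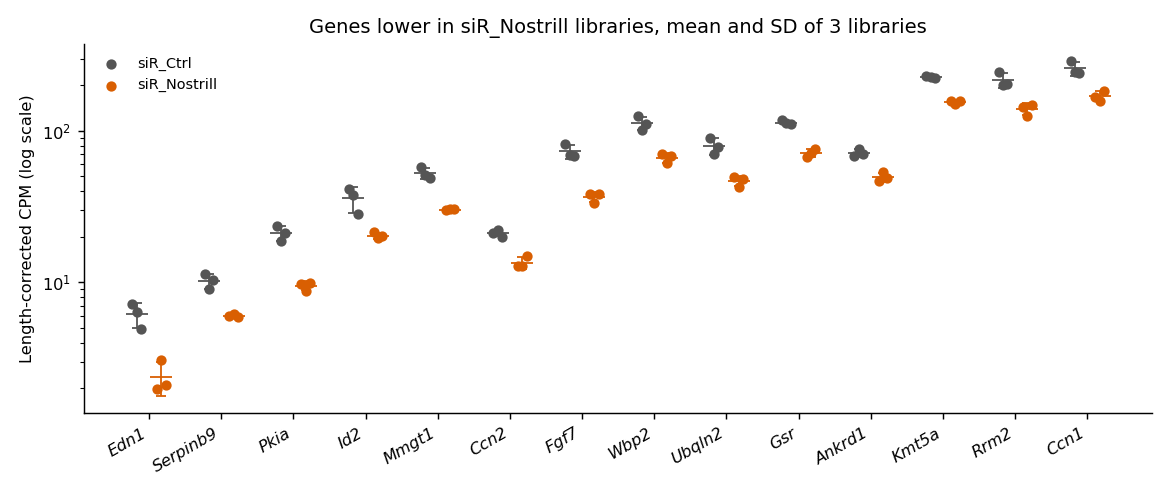
Length-corrected CPM (log scale) of 14 genes in the 3 siR_Ctrl (grey) and 3 siR_Nostrill (orange) libraries without IFN-γ; points are libraries, and bars give the mean and SD. For each gene all 3 siR_Nostrill libraries lie below all 3 siR_Ctrl libraries, with Edn1 at 1.97 to 3.06 CPM against 4.95 to 7.16 CPM. The genes were taken from those called after removal, and in all of those the groups did not overlap.

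The remaining lower genes as deposited had varied roles. Kmt5a, the histone H4 lysine methyltransferase, had 94.9, 89.3 and 91.2 FPKM in siR_Ctrl and 62.6, 59.4 and 65.8 FPKM in siR_Nostrill libraries. This narrow spread gave it an adjusted p of 0.0182 in edgeR at a log2 fold change of -0.53 as deposited. Wbp2, a coactivator that binds YAP, fell by 0.63 (adjusted p = 0.0189 in edgeR), Mmgt1, a membrane protein complex subunit, by 0.93 (adjusted p = 0.0357), Serpinb9, an inhibitor of granzyme B, by 0.77 (adjusted p = 0.0381), Ubqln2, a proteasome shuttle, by 0.81 (adjusted p = 0.0472) and Ss18, a subunit of a chromatin remodelling complex, by 0.50 (adjusted p = 0.0290). Ssx2ip (-0.62), Mb21d2 (-0.60), Wwc1 (-0.72) and Nus1 (-0.51) completed the set. All of these but Nus1 were called after removal as well.

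Among the 9 genes that rose as deposited, 5 lay outside the interferon lists. Mmp14, a membrane-bound matrix metalloproteinase, had 41.2, 41.5 and 43.9 FPKM in siR_Ctrl and 59.0, 66.4 and 64.5 FPKM in siR_Nostrill libraries. The groups were well separated, with log2 fold changes of 0.61 (adjusted p = 0.0357 in edgeR) and 0.70 after removal (adjusted p = 0.00471). Ei24, a p53-induced gene with a role in autophagy, rose by 0.53 (adjusted p = 0.0385 in edgeR), the homeobox gene Hoxd9 by 0.64 (adjusted p = 0.0384), Ctxn1 by 0.77 (adjusted p = 0.0189) and Mpzl1 by 0.41 (adjusted p = 0.0385) as deposited.

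After removal, 15 genes with the highest and 15 with the lowest log2 fold changes among called genes with an average log2 CPM above 1 included further names. Higher were Oscp1 (0.95), the histidine decarboxylase gene Hdc (0.91), Dmtn (0.83) and Adamts4 (0.82), an aggrecan-cleaving protease. Lower were Prl2c3 (-0.94), Zfp518a (-0.84), Tas1r2 (-0.75), the tubulin cofactor gene Tbca (-0.74), the formin gene Diaph3 (-0.74), Prl2c2 (-0.73) and Acbd5 (-0.72), a peroxisomal tether. Prl2c2 and Prl2c3 are near-identical copies, so the split of reads between them is uncertain.

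Several gene groups were not called or changed their direction with the length correction. Of 82 cytosolic ribosomal protein genes tested, which have short transcripts, 82 lay above 0 as deposited with a median of 0.31, and after removal 39 did with a median of -0.02, and 0 were called in either fit. Of 78 nuclear-encoded respiratory chain subunits, 75 lay above 0 as deposited (median 0.37) and 50 after removal (median 0.03), with Cox7b higher (0.31, adjusted p = 0.0180 in edgeR) and Uqcr11 lower (-0.56, adjusted p = 0.00138). These 2 are 2.56% of the list, below the 3.39% of all genes. In both groups the median fell to near 0 with the trend. Of 27 glycolysis and hypoxia genes and of 25 genes of the unfolded protein response 0 were called in either fit, with medians of -0.04 and 0.06 after removal. Of 17 RNA interference genes tested 0 were called, with a median of -0.19 as deposited and 0.01 after removal.

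Other lists held 1 or 2 calls after removal, in several at a share near the 3.39% of all genes. These were 2.63% of 38 autophagy genes, 3.45% of 29 matrix and mesenchymal genes, 4.55% of 22 immediate-early genes, 10% of 20 cAMP and protein kinase A genes and 11.1% of 18 p53 targets. In the autophagy list Atg3 fell by 0.44 (adjusted p = 0.00524 in edgeR) and in the immediate-early list Fosl2 fell by 0.26 (adjusted p = 0.0201). Tgfb3 was the one call among 29 matrix and mesenchymal genes (0.42, adjusted p = 0.0159 in edgeR), and of 18 p53 targets Plk2 fell by 0.33 (adjusted p = 0.0147) and Ei24 rose. Of 20 cAMP and protein kinase A genes, Pkia fell and Akap13, an A-kinase anchoring protein with a long transcript, was called higher. Akap13 had a log2 fold change of 0.26 (adjusted p = 0.0442 in edgeR) after removal and -0.33 (adjusted p = 0.525) as deposited, so its direction depended on the correction. Of 15 epithelial junction and keratin genes, of 16 metallothionein and zinc genes, of 15 MAPK feedback genes and of 9 histone genes 0 were called in either fit.

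Of the 12 genes for which the study used RT-PCR primers, 0 were called as deposited and Gadd45g, a stress-inducible gene, fell after removal (-0.36, adjusted p = 0.0486 in edgeR). This 1 call is 8.33% of the list, against 3.39% of all genes. The others included Nos2 (-0.19, adjusted p = 0.537 in edgeR), Igtp (0.52, adjusted p = 0.162) and Socs3 (-0.04, adjusted p = 0.822). The paper reports RT-PCR of selected cell-intrinsic defense genes beside its comparison with IFN-γ, so this list was not treated as independent evidence.

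Genes next to Nostrill were not called in resting cells. Of the 5 listed genes within 500 kb, Sap30, whose end lies 103 bases from the Nostrill gene, had 51.6, 65.2 and 59.5 FPKM in siR_Ctrl and 60.5, 71.3 and 57.2 FPKM in siR_Nostrill libraries. The groups overlapped, and the log2 fold change after removal was -0.12 (SE 0.08, adjusted p = 0.459 in edgeR). Hmgb2 had 0.07 (SE 0.13, adjusted p = 0.811 in edgeR), Hand2 0.02 (SE 0.08, adjusted p = 0.908) and Galnt7, a glycosyltransferase gene, 0.44 (SE 0.13, adjusted p = 0.0827). Scrg1 was near 0 in all 6 libraries and was not tested. In the libraries with IFN-γ, Galnt7 was higher (1.0, adjusted p = 0.000796 in edgeR) and Sap30 lower (-0.53, adjusted p = 0.00230) with the trend removed, and neither was called as deposited (adjusted p = 0.0651 and 0.118).

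Lower genes often held a match to a Nostrill siRNA seed in their 3′UTR. The longest 3′UTR of each gene in GENCODE was searched for the letters that pair with the seed, GCATTAA for Nostrill-1, ACACAAA for Nostrill-2 and GTTCTAA for Nostrill-3, on the transcript strand, and 28.0% of the 11656 tested genes with a 3′UTR held at least 1. Of the 17 genes lower as deposited 13 held a site, and of the 9 genes higher 0 did. After removal 153 of the 213 lower genes with a 3′UTR (71.8%) and 34 of the 187 higher genes (18.2%) held one. The lower genes with a site were Fgf7, Gsr, Pkia, Serpinb9, Wwc1, Wbp2, Mmgt1, Mb21d2, Nus1, Ubqln2, Kmt5a, Ss18 and Ssx2ip, and Edn1, Ccn1, Ccn2 and Rrm2 held none. The following sites in the lower genes are shown with the match in capitals.
Pkia, Nostrill-2 (chr3:7444827-7444855, plus strand): ataacctagaaACACAAAattttccattt
Fgf7, Nostrill-1 (chr2:126089735-126089763, plus strand): tttaaaagactGCATTAAagaaagatttg
Gsr, Nostrill-1 (chr8:33697926-33697954, plus strand): tggaacaaagtGCATTAAagttagacttg
Kmt5a, Nostrill-1 (chr5:124461434-124461462, plus strand): ctcctgaaactGCATTAAttctttataga
Mmgt1, Nostrill-3 (chrX:56588203-56588231, minus strand): gggccaaatatGTTCTAAatatttggagt
Wbp2, Nostrill-2 (chr11:116078701-116078729, minus strand): tcctggtccagACACAAAatgaggagatg
Coordinates are those of GRCm38.

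Of the 3 seeds, that of Nostrill-1 had the lowest median. Of 1010 genes with its site, 84 fell (8.32%) and 3 rose (0.297%) after removal, and their median log2 fold change was -0.089. For Nostrill-2, 87 of 1882 fell (4.62%) and 26 rose (1.38%), with a median of -0.036, and for Nostrill-3, 40 of 1141 fell (3.51%) and 12 rose (1.05%), with a median of -0.031. Of 8397 genes with no site, 60 fell (0.715%) and 153 rose (1.82%), with a median of 0.016. As deposited the medians were -0.202, -0.152 and -0.150 for the siRNAs and 0.052 without a site, but genes with a site had longer 3′UTRs, with a median of 2401 nt for any site against 878 nt for none, and the part of the length trend in this difference as deposited was not tested. After removal, genes with a site had lower medians than genes without one in each of 5 groups ranked by 3′UTR length, from -0.073 against 0.019 in the shortest to -0.022 against 0.036 in the longest.

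Without siR_Ctrl replicate 1, 2.24% of genes with any site fell against 0.250% of genes with none. Whether the siRNAs act on these mRNAs was not tested, and the seeds of the scrambled siRNA were not analysed here.

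**Figure D4:**
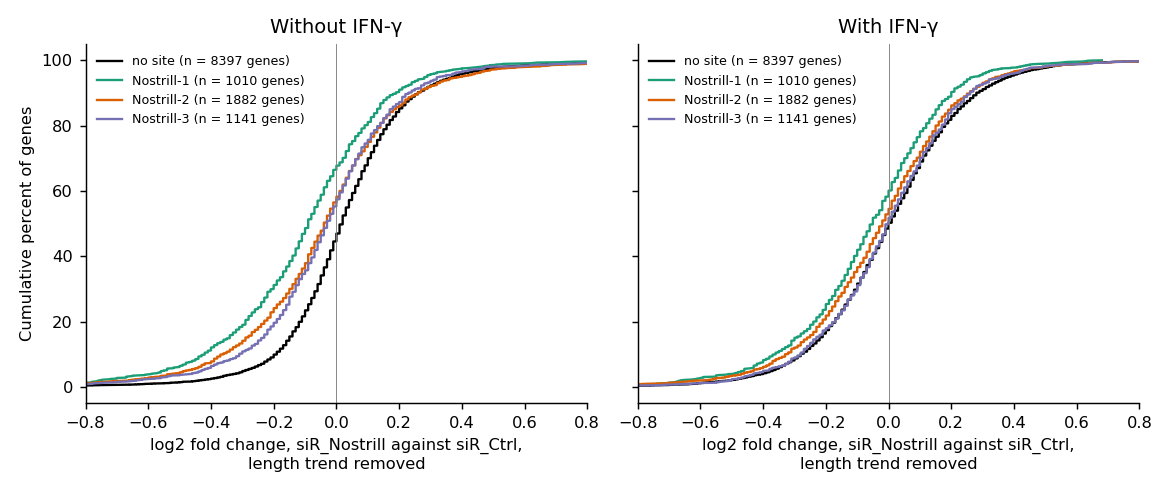
Cumulative percent of genes (vertical axis) against the log2 fold change of siR_Nostrill against siR_Ctrl with the length trend removed, for genes with a 3′UTR site of each siRNA seed and for genes with none, without and with IFN-γ. Without IFN-γ the curve of Nostrill-1 lies farthest to the left, with a median of -0.089 against 0.016 for genes with no site.

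The libraries given IFN-γ hold the same siRNA comparison in samples that the resting comparison did not use, although all 12 libraries share 1 estimate of the spread. In those, 51 of 11900 genes (0.429%) were called as deposited and 1540 (12.9%) with the trend removed, to which the following values refer. Of the 190 genes that rose in resting cells, 161 were above 0 with IFN-γ and 74 were called higher, and of the 214 that fell, 198 were below 0 and 106 were called lower. Over the 11656 tested genes with a 3′UTR, 6.24% were called higher and 6.84% lower with IFN-γ, with a median log2 fold change of -0.003. No gene was called in opposite directions. The 180 genes called in both states are 44.6% of the resting calls and 11.7% of the calls with IFN-γ. The median log2 fold change with IFN-γ was 0.20 for the higher genes and -0.27 for the lower genes, beside 0.39 and -0.40 in resting cells, whose values chose the genes.

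Among named genes, some were called again with IFN-γ and some were not. Fgf7 and Pkia both fell with IFN-γ, each by 0.79 on the log2 scale (adjusted p = 0.00119 and 0.00117 in edgeR), and Gsr by 0.66 (adjusted p = 0.000724). Oasl2 rose by 0.43 (adjusted p = 0.0191 in edgeR) and Ifit1 by 0.78 (adjusted p = 0.00151), while Irf9 had 0.06 (adjusted p = 0.658) and Bst2 0.02 (adjusted p = 0.887). As deposited, Fgf7 and Gsr were called with IFN-γ (adjusted p = 0.0226 and 0.0163 in edgeR), and Pkia (0.0592), Ifit1 (0.0569) and Oasl2 (0.159) were not. Fdps, of cholesterol synthesis, had 0.02 (adjusted p = 0.953 in edgeR), and the median of the 26 genes of that list was 0.05. With IFN-γ, 11.4% of genes with a Nostrill-1 site fell and 2.77% rose, against 6.48% and 7.15% of genes with no site. The share that fell was 7.39% for Nostrill-2 and 6.13% for Nostrill-3, the latter below that of genes with no site. For these 2 seeds 3.51% and 4.56% rose. The median log2 fold changes with IFN-γ were -0.052, -0.019 and -0.004 for Nostrill-1 to Nostrill-3 and 0.004 for genes with no site. The difference between the states was itself tested as an interaction, in which edgeR called 0 genes after removal (2268 at an unadjusted p below 0.05) and 0 as deposited (1277), and DESeq2 called 338 after removal (2080) and 0 as deposited (1471).

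**Figure D5:**
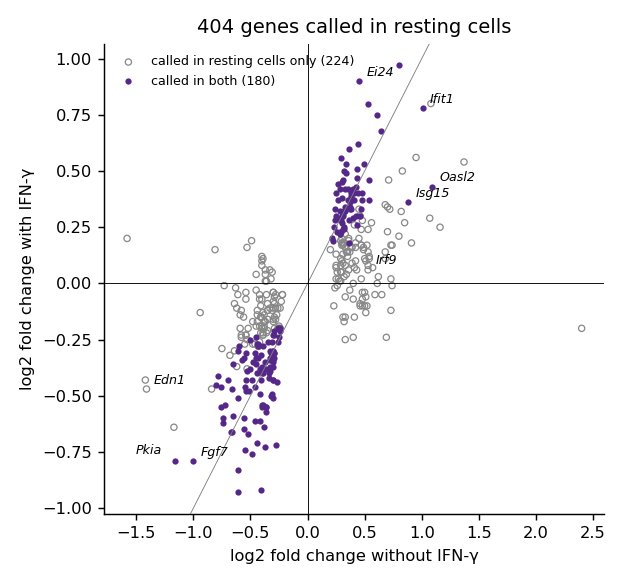
Log2 fold change of siR_Nostrill against siR_Ctrl with the length trend removed in libraries with IFN-γ (vertical axis) against that without IFN-γ (horizontal axis), for the 404 genes called in resting cells; filled points are the 180 called in both, open points the 224 called in resting cells only, and the line marks equal values. Of the 404, 161 higher and 198 lower genes keep their sign.

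The tables limit what could be seen. Every listed gene had reads in at least 1 resting siR_Nostrill library, while 616 had none in any siR_Ctrl library, so genes read in siR_Ctrl cells and lost in siR_Nostrill cells are not among those analysed here. A listing of this kind can also raise the log2 fold changes of genes with few reads, and with them the counts of list members above 0. The extent of this was not tested.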

How the data were processed

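Oligo(dT)-enriched RNA was sequenced on a DNBSEQ instrument. By the study's methods, SOAPnuke was the read filter and HISAT2 and Bowtie2 the aligners, on GRCm38.p6, and no counting tool is named in the sources used here. The deposited tables give, per gene and library, an estimated count, which the authors also turned into FPKM (scaled for length and depth) and TPM (scaled to 1 total per library). TPM served only to find what the tables leave out. Counts were rounded and tested with edgeR 4.0.16 in R 4.3.3 (quasi-likelihood, TMM, default low-count filter, 12 libraries in 1 fit, Benjamini-Hochberg threshold 0.05). The length trend was a lowess curve (span 0.3) per library of the deviation from the gene mean on log2 length, entered as offsets. Length was implied by the deposited values, as summed counts over summed FPKM scaled by library totals. Fits were tested on simulated counts. Alternatives were DESeq2 1.42.0, limma 3.58.1 on log2(FPKM + 1) or log2(FPKM + 0.1), other filters, size factors, samples, lengths, trends and thresholds, the replicate number as a block and each library left out. DESeq2 on only the 6 libraries, the interaction tests, the interferon lists above 1 FPKM, and the lists and seed sets without siR_Ctrl replicate 1 were chosen after seeing the data. Named were genes called as deposited, the 15 highest and 15 lowest called after removal (average log2 CPM above 1, groups not overlapping), of each list up to 4 called members or else the 2 most abundant, genes within 500 kb of Nostrill and genes with RT-PCR primers. Other list members with values were chosen after these were seen: Ifit2, Uba7, Ifi203, Ifi27, Ube2l6, Samhd1, Ece1, Lats2, Axl, Tead2, Hmgcs1, Mvk, Fdft1 and Sc5d. Some list members are counted but not reported by name here. Members and lists were chosen with earlier results of these data known. Coordinates of genes and promoters are from RefSeq (GRCm38.p6), and 3′UTRs from GENCODE (GRCm38).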

Additional observations from a re-analysis of the deposited data

How the results depend on the processing

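The as-deposited count of 26 called genes became 280 with DESeq2 (49.6% higher, against 34.6%), 73 with DESeq2 and 0 with edgeR on only the 6 libraries (1143 at an unadjusted p below 0.05), 706 with the length slope as a covariate (45.2% higher), 1643 at an unadjusted p below 0.05 and 555 where such genes also differed by over 0.5 on the log2 scale. With limma on log2(FPKM + 1) and log2(FPKM + 0.1) it was 21 and 20, of which 52.4% and 55.0% were higher. The count of 404 with the trend removed became 706 with DESeq2, 249 with edgeR on 6 libraries, 110 with GENCODE transcript lengths and 2293 at an unadjusted p below 0.05. It became 3452 with the trend taken against the group mean, which leaves the length trend between the groups in place. Leaving out single libraries gave 0 to 37 genes as deposited and 148 to 582 after removal. The lowest were 0 without siR_Ctrl replicate 1, any siR_Nostrill replicate or siR_Nostrill with IFN-γ replicate 2, and 148 without siR_Nostrill replicate 2. With the replicate block, 18 and 557 genes were called. Deviations from the group mean in same-numbered siR_Ctrl and siR_Nostrill libraries had correlations of -0.402, 0.404 and -0.375 as deposited. After removal these were -0.222, 0.198 and -0.182. Deviations within a group depend on each other, so these values do not settle whether the numbers pair the libraries. Filters on low counts and DESeq2 size factors gave 18 to 27 and 360 to 432. Of 1698 values of named genes after removal, 1485 kept direction and call, 211 lost the call, and 2 reversed: Akap13, 0.26, was -0.27 with the trend against the group mean and -0.34 with GENCODE lengths. Of 596 as deposited, 301 kept both, 295 lost the call and 0 reversed. The cause was not tested.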
